A study of Mus musculus with 12 samples.

Results

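The MHC class I antigen presentation genes described here were 9 genes chosen by name: the class I heavy chains H2-K1, H2-D1, H2-T23 and H2-M5, the light chain B2m, the peptide transporter genes Tap1 and Tap2, the loading chaperone gene Tapbp and the transactivator gene Nlrc5. They are 9 of 55416 genes in the deposited tables, and all 9 were among the 17940 genes with enough reads to be tested. RNA was sequenced from mouse Bl/6J embryonic stem cells in 12 libraries, with 3 libraries in each of 4 groups. The series asks how cells with a C48S change in the pluripotency factor Oct4, a cysteine replaced by a serine, differ from wild-type (WT) cells in the pluripotent state and when differentiating with retinoic acid (RA).

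The C48S RA group was the Oct4 C48S clone 46 grown for 2 days with RA at 1.5 mg/L and without leukaemia inhibitory factor (LIF), which keeps stem cells undifferentiated. The WT RA group was WT Bl/6J cells treated in the same way. The C48S undifferentiated and WT undifferentiated groups were the same lines without RA, in medium with a MEK inhibitor (PD, 1 µM), a GSK3 inhibitor (CHIR, 3 µM) and ascorbic acid. The labels do not say whether these supplements were kept during RA, so RA and the change of medium cannot be told apart. The mutant line is 1 clone, so the C48S change and other properties of that clone cannot be told apart either. Titles and the protocol place every RA library at day 2, whereas the treatment field names a different day for each one, and the grouping follows the titles. Nothing in the labels says that libraries of one group were grown as separate cultures, so the p-values reflect library-to-library spread that may be technical only.

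MHC class I molecules display short peptides from proteins made inside the cell to CD8 T cells, and their level is also read by natural killer cells. A class I molecule is a heavy chain paired with β2-microglobulin, the product of B2m. It is filled in the endoplasmic reticulum with peptides cut by the proteasome, carried across the membrane by the TAP transporter, a dimer of the Tap1 and Tap2 products, and loaded with the help of tapasin, the product of Tapbp. NLRC5 drives transcription of the heavy chain, B2m and Tap1 genes through promoter elements shared among them, and interferons raise the pathway through factors such as IRF1. Embryonic stem cells are known for low class I levels, which increase as the cells differentiate.

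Library totals lay between 8678088 and 13597098 counts. Levels are given as CPM, the count scaled to the size of its library after TMM normalization, and changes as log2 fold changes ± SE of the edgeR quasi-likelihood fit, with p-values adjusted by the Benjamini-Hochberg method over all genes tested and a gene called at an adjusted p under 0.05. C48S undifferentiated replicate 3 stood apart from the others of its group: set against replicate 1 its counts gave a chi-square of 9.94 per degree of freedom, and pairs without this library gave at most 2.26. The 7 stem cell markers (Pou5f1, Nanog, Sox2, Esrrb, Zfp42, Klf4 and Tdh) summed to 4214 to 4355 CPM in C48S undifferentiated libraries and 3651 to 3765 CPM in WT undifferentiated libraries, so the defining markers of the labelled cell type were present. Single markers went both ways in undifferentiated cells, with 3 called higher in C48S and 2 lower. Klf4 averaged 639.4 ± 28.4 CPM in C48S and 211.9 ± 9.88 CPM in WT. Nanog averaged 857.8 ± 2.88 CPM in C48S and 1069.0 ± 22.1 CPM in WT. After RA the 7 markers summed to 508 to 549 CPM in C48S libraries and 93.6 to 103.5 CPM in WT libraries, and all 7 were called higher in C48S. Every comparison of the lines after RA below stands beside that difference in remaining stem cell transcripts, whose part in the results was not tested. In bulk RNA, fewer cells that express a gene and less of its RNA per cell cannot be told apart.

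H2-K1 encodes a classical class I heavy chain. It was at 94.0, 92.2 and 97.6 CPM in C48S RA libraries and at 259, 236 and 233 CPM in WT RA libraries. In the undifferentiated state it was at 29.7, 29.7 and 32.3 CPM in C48S and at 30.9, 31.2 and 30.3 CPM in WT. The lines overlapped before RA and were wholly apart after it, with every C48S RA library below every WT RA library. H2-K1 was lower in C48S after RA by a log2 fold change of -1.36 ± 0.054 (2.56-fold, adjusted p = 2.43e-21), and the undifferentiated lines differed by -0.014 ± 0.072 (95% interval -0.16 to 0.13, adjusted p = 0.887). RA raised H2-K1 3.10-fold in C48S (1.63 ± 0.064, adjusted p = 3.94e-22) and 7.86-fold in WT (2.98 ± 0.062, adjusted p = 1.78e-30). The difference between these RA changes (C48S minus WT), tested as an interaction, was -1.34 ± 0.09 (adjusted p = 1.56e-14).

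H2-D1 encodes the other classical heavy chain of the b haplotype. Its level was 65.2, 61.8 and 60.9 CPM in C48S RA libraries and 82.6, 82.9 and 82.5 CPM in WT RA libraries. Before RA it was 31.4, 32.6 and 33.2 CPM in C48S and 19.1, 21.7 and 18.8 CPM in WT. The groups of the 2 lines did not overlap in either state, and their order was opposite in the 2 states. H2-D1 was higher in undifferentiated C48S cells by 0.70 ± 0.083 (adjusted p = 5.42e-09) and lower in C48S after RA by a log2 fold change of -0.40 ± 0.065 (adjusted p = 3.01e-06). RA raised it by 0.95 ± 0.071 in C48S (adjusted p = 3.98e-14) and by 2.05 ± 0.076 in WT (adjusted p = 4.16e-23), and the interaction was -1.10 ± 0.11 (adjusted p = 1.20e-10).

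The balance of the classical chains also differed between groups. Per kilobase of exon, the H2-K1 level divided by the H2-D1 level was 1.26 to 1.41 in C48S RA libraries and 2.48 to 2.75 in WT RA libraries. It was 0.80 to 0.853 in C48S undifferentiated libraries and 1.26 to 1.42 in WT undifferentiated libraries. H2-D1 thus had more reads per kilobase than H2-K1 in C48S undifferentiated libraries and fewer in the other 3 groups. Counts of these genes carry a limit of their own, since 6.87% of the 50-base stretches in H2-K1 transcripts and 13.9% of those in H2-D1 transcripts also occur in transcripts of other genes, most often H2-D1 for H2-K1 and H2-Q1 for H2-D1, and read pairs from such stretches could be lost or split.

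The promoters of H2-K1, H2-D1, B2m and Tap1 are shown as those of a heavy chain pair, the light chain and a transporter subunit, and that of H2-M5 because RA lowered it in both lines. They are the 250 bases before the start in RefSeq (GRCm38.p6, not the GRCm39 build of the count tables), 5′ to 3′ on the strand of the gene, and 7 of the 9 members had an entry, Tap2 and Nlrc5 being the others. Capitals mark matches, on either strand, to motifs known from class I promoters: GGGGATTCC of the enhancer A kappa B site, AANNGAAA of sites for interferon regulatory factors (IRF), TGACG of cyclic AMP response elements and the CCAAT box, where N is any base. The stretches lie at chr17:34000348-34000597 (minus strand), chr17:35262844-35263093 (plus), chr2:122147437-122147686 (plus), chr17:34187306-34187555 (plus) and chr17:36989534-36989783 (minus).
H2-K1: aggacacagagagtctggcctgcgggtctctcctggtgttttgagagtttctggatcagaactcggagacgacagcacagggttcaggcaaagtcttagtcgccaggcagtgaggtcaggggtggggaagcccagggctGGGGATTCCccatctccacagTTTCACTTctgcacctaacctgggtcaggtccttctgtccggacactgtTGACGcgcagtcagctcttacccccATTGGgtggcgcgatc
H2-D1: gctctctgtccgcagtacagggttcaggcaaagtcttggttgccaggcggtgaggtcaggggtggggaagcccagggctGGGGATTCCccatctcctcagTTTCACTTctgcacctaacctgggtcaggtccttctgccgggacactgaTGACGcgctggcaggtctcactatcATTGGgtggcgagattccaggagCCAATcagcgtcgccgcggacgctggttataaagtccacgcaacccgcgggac
B2m: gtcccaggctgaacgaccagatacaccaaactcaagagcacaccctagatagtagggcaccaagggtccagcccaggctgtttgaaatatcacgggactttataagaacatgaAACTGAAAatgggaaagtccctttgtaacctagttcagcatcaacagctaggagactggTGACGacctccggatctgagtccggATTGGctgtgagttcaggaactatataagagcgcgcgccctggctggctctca
Tap1: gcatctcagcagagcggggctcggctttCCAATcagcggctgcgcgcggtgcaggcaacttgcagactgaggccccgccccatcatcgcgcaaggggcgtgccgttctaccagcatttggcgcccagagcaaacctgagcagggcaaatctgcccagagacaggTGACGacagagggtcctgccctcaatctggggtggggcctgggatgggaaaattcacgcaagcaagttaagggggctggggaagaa
H2-M5: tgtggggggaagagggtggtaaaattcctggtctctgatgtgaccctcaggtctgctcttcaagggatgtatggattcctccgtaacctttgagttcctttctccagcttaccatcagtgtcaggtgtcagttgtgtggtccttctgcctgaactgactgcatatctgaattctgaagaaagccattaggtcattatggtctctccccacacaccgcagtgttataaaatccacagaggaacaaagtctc

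The H2-K1 stretch holds the kappa B letters at 111 to 103 bases before the start, followed by AANNGAAA on the reverse strand at 90 to 83, TGACG at 41 to 37 and a reverse CCAAT at 16 to 12. The H2-D1 stretch holds the same 4 motifs in the same order, at 171 to 163, 150 to 143, 101 to 97 and 76 to 72 bases, and a further CCAAT at 53 to 49. Set side by side at an offset of 60 bases, the H2-K1 and H2-D1 stretches are identical at 166 of 190 positions (87.4%). The B2m stretch holds AANNGAAA at 137 to 130, TGACG at 78 to 74 and a reverse CCAAT at 53 to 49, and the Tap1 stretch holds TGACG at 86 to 82 and CCAAT at 222 to 218. H2-M5 has none of these letters in its window, Tapbp has only CCAAT boxes, 2 of them on the reverse strand, and H2-T23 has a CCAAT box and 2 reverse AANNGAAA. No match printed overlaps another. Among 27025 promoters of the same length, GGGGATTCC occurs in 59 (0.218%), AANNGAAA in 21.6%, TGACG in 17.9% and CCAAT in 34.5%. The Tap1 window shares 275 of its 300 bases in the RefSeq table with that of Psmb9, an immunoproteasome gene transcribed in the opposite direction. These matches describe letters and are not evidence of binding in these cells.

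H2-M5, a non-classical heavy chain gene of the H2-M region, moved against the classical chains. It was at 26.9, 22.4 and 21.5 CPM in C48S RA libraries and at 2.28, 2.83 and 1.95 CPM in WT RA libraries. Undifferentiated libraries had 91.2, 94.8 and 90.8 CPM in C48S and 89.3, 89.1 and 92.3 CPM in WT. The lines overlapped before RA, and every RA library lay below every undifferentiated one. RA lowered H2-M5 3.90-fold in C48S (-1.96 ± 0.077, adjusted p = 5.24e-22) and 37.8-fold in WT (-5.24 ± 0.12, adjusted p = 1.06e-29), so after RA it was 9.92-fold higher in C48S (3.31 ± 0.14, adjusted p = 6.74e-21). The interaction was 3.28 ± 0.16 (adjusted p = 1.43e-18), and the undifferentiated lines differed by 0.032 ± 0.069 (95% interval -0.11 to 0.17, adjusted p = 0.715). Like H2-M5, all 7 stem cell markers fell with RA in both lines and had a called positive interaction.

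H2-T23, which encodes the Qa-1 heavy chain that presents signal peptides to natural killer cell receptors, was close to the limit of the counting. It had 11, 2 and 11 reads in C48S RA libraries and 6, 14 and 7 in WT RA libraries, with 34, 22 and 30 in C48S undifferentiated libraries and 21, 11 and 12 in WT undifferentiated libraries. In CPM that is 0.635 ± 0.388 for C48S RA, 0.835 ± 0.318 for WT RA, 2.78 ± 0.39 for C48S undifferentiated and 1.48 ± 0.657 for WT undifferentiated cells (SD, n = 3 each). The RA groups overlapped, and the undifferentiated C48S libraries lay above the undifferentiated WT libraries. H2-T23 was called higher in undifferentiated C48S (0.94 ± 0.35, adjusted p = 0.0218), but the call was lost with DESeq2 (adjusted p = 0.0573) and without C48S undifferentiated replicate 1 (0.0565), WT undifferentiated replicate 2 (0.66, adjusted p = 0.153) or WT undifferentiated replicate 3 (0.0656). RA lowered it in C48S (-2.06 ± 0.39, adjusted p = 1.59e-05). The RA change of -0.75 ± 0.43 in WT (adjusted p = 0.107) passed only without WT undifferentiated replicate 2 (-1.03, adjusted p = 0.0407) and was -0.37 without WT undifferentiated replicate 1, with a range of -1.12 to -0.37 when a library was left out. The interaction of -1.31 ± 0.6 (adjusted p = 0.0824) passed only without WT undifferentiated replicate 1 (-1.72, adjusted p = 0.0308), with a range of -1.72 to -0.94. Between the lines after RA the difference was -0.37 ± 0.48 (95% interval -1.35 to 0.61). Of its 50-base stretches, 28.8% also occur in transcripts of other genes.

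The light chain gene B2m followed neither the classical chains nor H2-M5. It was at 44.8, 42.6 and 46.4 CPM in C48S RA libraries and at 39.7, 43.1 and 41.6 CPM in WT RA libraries. Undifferentiated libraries had 65.8, 66.5 and 65.8 CPM in C48S and 32.3, 35.2 and 34.2 CPM in WT. B2m was 1.95-fold higher in undifferentiated C48S (0.96 ± 0.072, adjusted p = 8.07e-14), while the overlapping RA groups differed by 0.10 ± 0.071 (95% interval -0.04 to 0.25, adjusted p = 0.223). RA lowered B2m in C48S (-0.56 ± 0.068, adjusted p = 4.60e-09) and raised it in WT (0.29 ± 0.074, adjusted p = 6.62e-04), with an interaction of -0.86 ± 0.1 (adjusted p = 1.22e-08).

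Relative to the classical heavy chains, B2m was thus far lower after RA. Per kilobase of exon, B2m divided by the sum of H2-K1 and H2-D1 was 0.894 to 0.948 in C48S RA libraries and 0.384 to 0.446 in WT RA libraries. It was 3.21 to 3.43 in C48S undifferentiated libraries and 2.09 to 2.26 in WT undifferentiated libraries. The 4 ranges do not overlap, so in each state the ratio was higher in C48S, and in each line it was lower with RA. These are ratios of RNA and not of protein.

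Tap1 was at 67.2, 62.2 and 65.0 CPM in C48S RA libraries and at 102.4, 98.9 and 100.5 CPM in WT RA libraries. In the undifferentiated state it was at 8.23, 7.99 and 5.38 CPM in C48S and at 6.29, 6.05 and 7.81 CPM in WT. The lines overlapped before RA, where they differed by 0.12 ± 0.15 (95% interval -0.18 to 0.42, adjusted p = 0.502), and not after it. RA raised Tap1 8.93-fold in C48S (3.16 ± 0.1, adjusted p = 2.07e-24) and 15.1-fold in WT (3.91 ± 0.1, adjusted p = 1.37e-27). After RA it was lower in C48S (-0.63 ± 0.074, adjusted p = 4.64e-09), and the interaction was -0.75 ± 0.16 (adjusted p = 3.08e-04).

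Tap2, the partner of Tap1 in the transporter, was at 23.5, 22.6 and 20.6 CPM in C48S RA libraries and at 23.4, 20.2 and 18.3 CPM in WT RA libraries. Undifferentiated libraries had 2.04, 2.24 and 3.1 CPM in C48S and 1.26, 2.1 and 1.95 CPM in WT. The lines overlapped in both states, and all RA libraries lay above all undifferentiated ones. RA raised Tap2 9.10-fold in C48S (3.19 ± 0.16, adjusted p = 1.10e-18) and 11.4-fold in WT (3.52 ± 0.18, adjusted p = 4.15e-19). No difference between the lines passed the test, at 0.11 ± 0.11 after RA (95% interval -0.12 to 0.34) and 0.44 ± 0.27 before it (95% interval -0.10 to 0.98), and the interaction was -0.33 ± 0.29 (adjusted p = 0.394). Per kilobase, Tap1 divided by Tap2 was 1.90 to 2.18 in C48S RA libraries and 3.02 to 3.80 in WT RA libraries.

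Tapbp, which encodes tapasin, had the largest difference between undifferentiated lines of the 9 members. It was at 94.1, 91.3 and 94.1 CPM in C48S RA libraries and at 140.1, 130.8 and 142.3 CPM in WT RA libraries. Undifferentiated libraries had 100.8, 93.8 and 105.7 CPM in C48S and 35.4, 33.2 and 31.9 CPM in WT. The WT undifferentiated libraries were the low group, the WT RA libraries the high one, and the C48S groups lay close together between them. Tapbp was 2.99-fold higher in undifferentiated C48S (1.58 ± 0.065, adjusted p = 6.27e-21) and lower in C48S after RA (-0.56 ± 0.056, adjusted p = 1.55e-10). RA raised it 4.11-fold in WT (2.04 ± 0.064, adjusted p = 3.40e-25). In C48S the RA change was -0.10 ± 0.058 (95% interval -0.22 to 0.01, adjusted p = 0.104), which passed the test only without C48S undifferentiated replicate 2 (-0.17, adjusted p = 0.0124). The interaction was -2.14 ± 0.086 (adjusted p = 1.40e-20).

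Nlrc5, the gene of the class I transactivator, was at 13.4, 14.8 and 11.7 CPM in C48S RA libraries and at 8.7, 7.89 and 8.01 CPM in WT RA libraries. In undifferentiated cells it was at 1.02, 0.746 and 1.34 CPM in C48S and at 1.05, 0.84 and 1.95 CPM in WT, from 7 to 18 reads per library. The lines overlapped before RA, and after RA every C48S library lay above every WT library. RA raised Nlrc5 12.6-fold in C48S (3.66 ± 0.22, adjusted p = 1.42e-16) and 6.54-fold in WT (2.71 ± 0.24, adjusted p = 1.36e-12), and after RA it was higher in C48S (0.69 ± 0.15, adjusted p = 1.75e-04). This order was opposite to that of H2-K1, H2-D1, Tap1 and Tapbp in the same libraries. Nlrc5 lies on chromosome 8, where the median gene was higher in C48S by 0.54 after RA and 0.50 before it (941 genes tested), and the part of that shift in the Nlrc5 difference was not tested. Before RA the lines differed by -0.26 ± 0.36 (95% interval -0.99 to 0.48). The interaction of 0.95 ± 0.39 (adjusted p = 0.0527) passed the test without C48S RA replicate 3 (1.03, 0.0425), without C48S undifferentiated replicate 3 (1.15, 0.0245) or without WT undifferentiated replicate 2 (1.19, 0.0242), and was 0.53 without WT undifferentiated replicate 3.

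**Figure D1:**
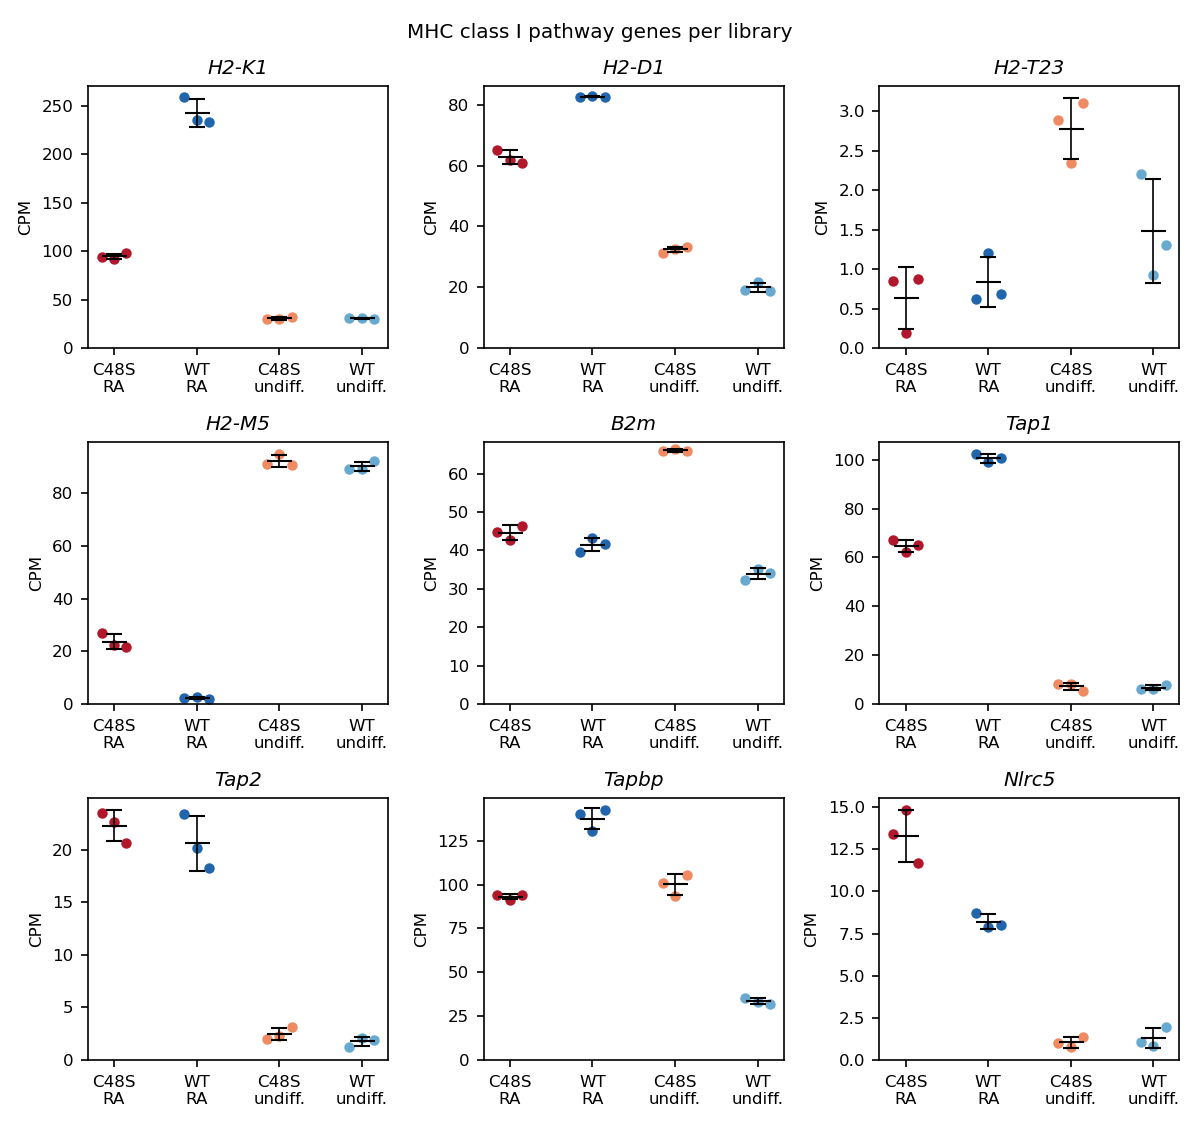
Level in CPM (linear axis from 0, its scale differing between panels) of each of the 9 genes in every library, by group; points are libraries, and the horizontal line with bars is the mean ± SD of 3. H2-K1 and Tap1 are high in RA libraries and highest in WT RA, Tapbp is low only in WT undifferentiated cells, and H2-M5 is near 90 CPM in both undifferentiated groups and lowest in WT RA.

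Counted together, 6 members were called between the lines after RA, 2 higher in C48S (H2-M5 and Nlrc5) and 4 lower (H2-K1, H2-D1, Tap1 and Tapbp), where 54.5% of all genes tested were called (28.8% higher and 25.7% lower). In undifferentiated cells 4 members were called higher in C48S (H2-D1, H2-T23, B2m and Tapbp) and the other 5 did not pass, where 55.6% of all genes were called (27.5% higher and 28.1% lower). The median difference of the 9 members was -0.37 after RA and 0.44 before it, beside 0.023 and 0.0014 over all genes tested. RA raised 5 members and lowered 3 in C48S, where 73.6% of all genes were called (39% higher and 34.6% lower). In WT it raised 7 and lowered 1, where 78.3% of all genes were called (40.9% higher and 37.4% lower). The median RA change of the members was 0.95 in C48S and 2.05 in WT, beside 0.049 and 0.055 over all genes. In the interaction 1 member was called higher and 5 lower, where 39.4% of all genes were called (22.2% higher and 17.2% lower), and the median was -0.86 beside 0.023.

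**Figure D2:**
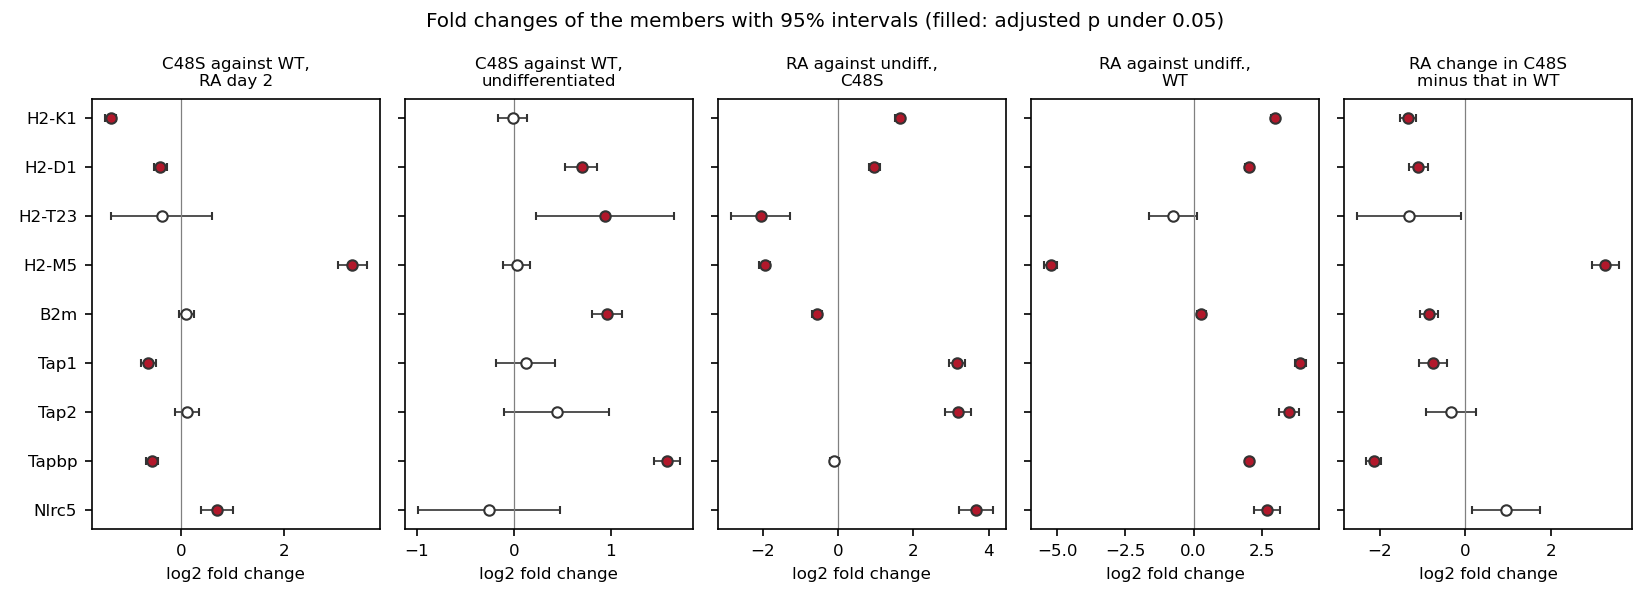
Log2 fold change of each member in the 5 comparisons, with 95% intervals from the edgeR fit, filled where the adjusted p was under 0.05; each panel has its own scale. The panels of C48S against WT show H2-D1 and Tapbp on the low side after RA and the high side before it, and the panel of the interaction shows 5 filled points below 0 and H2-M5 above it.

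Levels can be ordered per kilobase of exon within a group. In C48S RA libraries the order was B2m (51.8 ± 2.22 CPM per kilobase), H2-K1 (32.2 ± 0.94), Tapbp, H2-D1, Tap1, H2-M5, Tap2, Nlrc5 and H2-T23 (0.22 ± 0.134), and of these neighbours only Tapbp and H2-D1 overlapped between libraries. In WT RA libraries H2-K1 came first (82.6 ± 4.83), then B2m (48.2 ± 2.01), Tapbp, H2-D1, Tap1, Tap2, Nlrc5, H2-M5 and H2-T23 (0.289 ± 0.11), with Nlrc5 and H2-M5 overlapping. Per kilobase, H2-K1 thus stood above B2m in WT RA libraries and in no other group. That order depends on the exon length, 2938 bases for H2-K1 and 860 for B2m, which may differ from that of the transcripts made. Undivided, H2-K1 stood above B2m in C48S RA libraries too, at 94.6 against 44.6 CPM. The undifferentiated groups began alike, with B2m at 76.8 ± 0.485 in C48S and 39.4 ± 1.7 in WT, and H2-M5 next at 34.3 ± 0.824 in C48S and 33.5 ± 0.662 in WT. After these came Tapbp, H2-D1 and H2-K1 in C48S, and H2-K1, Tapbp and H2-D1 in WT, without overlap. Both undifferentiated groups ended with Tap1, H2-T23, Tap2 and Nlrc5, the last at 0.122 ± 0.0353 in C48S and 0.151 ± 0.0696 in WT, where H2-T23 overlapped Tap2 in both lines and Tap1 in C48S.

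Of the 9 members, 7 lie on chromosome 17, as does Pou5f1, the gene that carries the C48S change. On GRCm39, Tapbp is at chr17:34134873-34148266, H2-K1 at chr17:34214991-34219321, Tap1 at chr17:34406527-34416199, Tap2 at chr17:34422501-34435295, H2-D1 at chr17:35481706-35486475, H2-T23 at chr17:36340665-36343747 and H2-M5 at chr17:37294953-37300429. H2-D1 is 0.33 Mb from Pou5f1 and H2-T23 is 0.52 Mb from it, and the others are 1.38 to 1.67 Mb away. B2m is at chr2:121978167-121983564 and Nlrc5 at chr8:95160984-95253900. Between the outermost members on chromosome 17, 132 other genes were tested. After RA, 56 of them were higher in C48S and 18 lower (56.1% called), with a median of 0.24, and before RA 34 were higher and 28 lower (47% called), with a median of 0.081. H2-K1, H2-D1, Tap1 and Tapbp, all lower in C48S after RA, thus lay in a stretch with a positive median, and H2-M5 had the largest difference of the stretch after RA.

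**Figure D3:**
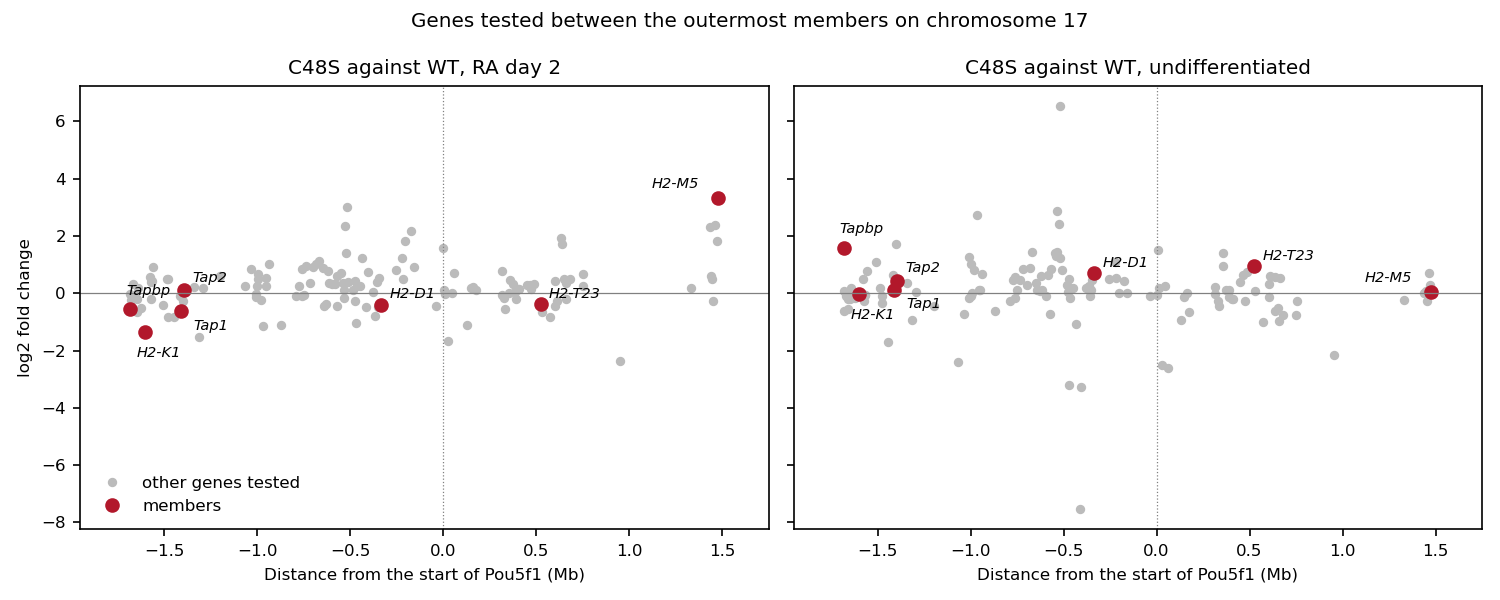
Log2 fold change of C48S against WT for the 132 other genes tested (grey) and the 7 members (red) between Tapbp and H2-M5 on chromosome 17, by distance from the start of Pou5f1 in Mb (dotted line at 0), after RA (left) and undifferentiated (right). Genes close to Pou5f1 lie on both sides of 0, and H2-M5 is the highest point after RA.

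The other class I heavy chains, a list of 21 genes, had 12 members tested, and H2-T24, H2-M9, H2-M11 and H2-M10.2 had no read in any library. RA raised 11 of the 12 in C48S, and raised 11 and lowered 1, H2-T3, in WT. H2-Q7, a Qa-2 gene, averaged 6.62 ± 1.46 CPM in C48S RA and 3.53 ± 0.35 in WT RA libraries, against 0.428 ± 0.0888 in C48S undifferentiated and 0.41 ± 0.19 in WT undifferentiated libraries, and RA raised it by 3.95 ± 0.32 in C48S (adjusted p = 2.72e-13) and by 3.02 in WT. H2-Q10, a gene of a secreted heavy chain, rose by 2.97 ± 0.24 in C48S and 3.32 ± 0.23 in WT. H2-M10.4 averaged 3.02 ± 0.321 CPM in C48S RA and 15.6 ± 1.34 in WT RA libraries, against 0.07 ± 0.0606 in C48S undifferentiated and 0.333 ± 0.0924 in WT undifferentiated libraries, where it had few reads. Between the lines after RA, 4 were higher in C48S, among them H2-Q6 (2.18 ± 0.44) and H2-Q7 (0.92 ± 0.21), and 5 were lower, among them H2-M10.4 (-2.37 ± 0.17) and H2-T22 (-0.65 ± 0.1). Before RA 2 were higher in C48S, H2-Q4 (0.53 ± 0.15) and H2-M3 (1.34 ± 0.43), and 2 lower, H2-M10.4 and H2-Bl (-1.0 ± 0.4), or 1 lower without C48S undifferentiated replicate 3. The interaction was negative for H2-T22 (-0.72 ± 0.17) and H2-M3 (-1.40 ± 0.51), and did not pass for the other 10 genes. The medians over the 12 were 1.86 in C48S and 2.11 in WT for RA, beside 0.049 and 0.055 over all genes. The shares of all genes called stand beside the counts of this list and those below. They were 54.5% between the lines after RA and 55.6% before it. For RA they were 73.6% in C48S and 78.3% in WT, and for the interaction 39.4%. By direction, 28.8% were higher in C48S and 25.7% lower after RA, and 27.5% higher and 28.1% lower before it. RA raised 39% and lowered 34.6% in C48S, and raised 40.9% and lowered 37.4% in WT. In the interaction 22.2% were higher and 17.2% lower.

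Of the 13 class I-like molecules listed, such as the Fc receptor chain Fcgrt and the NKG2D ligands Raet1d, Raet1e and Ulbp1, 8 were tested. Of all genes tested, 28.8% were higher in C48S after RA and 25.7% lower. In this list 2 were higher after RA (Procr, 0.67 ± 0.19, and Raet1e, 0.41 ± 0.12) and 2 lower (Fcgrt, -0.77 ± 0.13, and Raet1d, -0.80 ± 0.16). Before RA 5 were lower and the other 3 did not pass, led by Fcgrt at 5.05 ± 0.414 CPM in C48S and 33.4 ± 2.47 CPM in WT (-2.72 ± 0.13, adjusted p = 1.58e-19) and Ulbp1 (-3.24 ± 0.4). RA raised 6 in C48S, and raised 3 and lowered 2 in WT, and the interaction was positive for 5. Raet1d rose by 3.84 ± 0.3 in C48S and 2.57 ± 0.21 in WT, and Fcgrt rose in C48S (0.62 ± 0.15) and fell in WT (-1.34 ± 0.11).

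The immunoproteasome list joins the inducible catalytic subunit genes Psmb8, Psmb9 and Psmb10 with the constitutive ones they replace (Psmb5, Psmb6 and Psmb7) and the activator genes Psme1, Psme2 and Psme3. Psmb8, next to Tap1 on chromosome 17, averaged 5.97 ± 1.36 CPM in C48S RA and 7.16 ± 1.32 in WT RA, against 0.453 ± 0.361 in C48S undifferentiated and 0.127 ± 0.0354 in WT undifferentiated libraries. RA raised it by 3.68 ± 0.34 in C48S and 5.66 ± 0.42 in WT, and Psmb9 by 2.56 ± 0.23 in C48S and 3.32 ± 0.26 in WT. The interaction did not pass for either gene. Before RA, Psmb8 rested on 14 reads over the C48S libraries and 4 over the WT libraries. The constitutive subunit genes fell with RA in both lines, for example Psmb7 with -0.80 ± 0.061 in C48S and -0.76 in WT. Over all genes tested, 27.5% were higher in C48S before RA and 28.1% lower, and after RA 28.8% were higher and 25.7% lower. In the interaction 22.2% of all genes were called higher and 17.2% lower. Before RA 3 of the list were higher in C48S, Psme1 (0.92 ± 0.077), Psme2 (1.0 ± 0.093) and Psmb10 (1.52), and 3 lower, and after RA 3 were lower while the other 6 did not pass: Psmb6 (-0.86 ± 0.066), Psme3 (-0.34 ± 0.054) and Psmb7 (-0.34 ± 0.062). The interaction was called lower for Psme2 (-1.14 ± 0.12), Psme1 (-0.90 ± 0.1) and Psmb10 (-1.63 ± 0.26) and higher for Psme3 (0.25 ± 0.075), and without C48S undifferentiated replicate 3 there were 3 higher and 3 lower. Psmb10 lies on chromosome 8, and Psmb6 and Psme3 on chromosome 11, where the median gene was lower in C48S, at -0.49 after RA and -0.53 before it (1403 genes tested).

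In the endoplasmic reticulum, 13 tested genes of peptide loading and trimming showed no common direction. After RA 6 were higher in C48S and 3 lower, where 28.8% of all genes tested were higher and 25.7% lower. Calr, the gene of the loading chaperone calreticulin, averaged 926.1 ± 15.4 CPM in C48S RA and 410.1 ± 16.6 in WT RA libraries (1.18 ± 0.048, adjusted p = 5.02e-21), and Canx, the gene of the related chaperone calnexin, was lower in C48S (-0.58 ± 0.044). Calr too lies on chromosome 8, and Canx on chromosome 11, where the median gene was at -0.49 in C48S after RA. Before RA 7 were higher and 5 lower, and Tapbpl, whose product edits bound peptides, was at 5.68 ± 1.13 CPM in C48S and 1.13 ± 0.166 CPM in WT (2.30 ± 0.26, adjusted p = 2.02e-09). Tapbpl lies on chromosome 6, where the median gene was higher in C48S by 0.57 before RA and 0.59 after it (898 genes tested). RA raised Erap1, the gene of the peptide-trimming aminopeptidase, by 1.18 ± 0.12 in C48S and by 2.35 ± 0.13 in WT, with an interaction of -1.18 ± 0.18 (adjusted p = 1.79e-06). RA raised 1 and lowered 4 of the list in C48S, where 4 rose and 4 fell without C48S undifferentiated replicate 3, and raised 3 and lowered 8 in WT. The interaction was called higher for 5 and lower for 3, or higher for 6 and lower for 5 without that library.

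Of 21 transcription factors and chromatin regulators of class I genes, all tested, 14 were higher in C48S after RA and 4 lower, and 9 were higher and 4 lower before RA. Over all genes tested, 28.8% were higher and 25.7% lower after RA, and 27.5% higher and 28.1% lower before RA. On chromosomes 6, 8 or 11 lie 6 of the 21, with 5 higher and 1 lower after RA and 4 higher before RA. Among the other 15, 9 were higher and 3 lower after RA, and 5 higher and 4 lower before RA. Irf1, a factor that binds the interferon response element, averaged 66.2 ± 2.12 CPM in C48S RA and 95.8 ± 7.25 in WT RA, against 57.1 ± 5.14 in C48S undifferentiated and 35.3 ± 1.45 in WT undifferentiated libraries. It was higher in undifferentiated C48S (0.70 ± 0.076, adjusted p = 8.39e-10) and lower in C48S after RA (-0.53), with an interaction of -1.23 ± 0.1 (adjusted p = 2.87e-12). Irf1 lies on chromosome 11, where the median gene was at -0.49 in C48S after RA and -0.53 before it, and the part of that shift in its differences was not tested. Irf2, a related factor on chromosome 8, rose with RA by 4.04 ± 0.19 in C48S and 3.53 ± 0.22 in WT. The RFX subunit gene Rfxank, also on chromosome 8, was higher in C48S in both states (1.0 ± 0.099 after RA and 1.13 ± 0.1 before it), and so was Ezh2 on chromosome 6 (0.98 ± 0.051 after RA and 1.08 ± 0.049 before it), the catalytic subunit gene of the Polycomb complex that silences class I genes in some tumours. Ciita, the gene of the class II transactivator, was at 0.991 ± 0.482 CPM in C48S RA and 11.5 ± 1.42 CPM in WT RA libraries (-3.56 ± 0.25, adjusted p = 2.59e-14).

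Interferon signalling genes were measured as receptors, kinases, transcription factors and inhibitors, with 13 of 15 listed genes tested. Ifnb1 had no read in any library, and Ifng averaged 0.0256 ± 0.0444 CPM in C48S RA libraries and had no read in the other groups. Of all genes tested, 28.8% were higher in C48S after RA and 25.7% lower, and before RA 27.5% were higher and 28.1% lower. Between the lines after RA 2 of the 13 were higher in C48S and 8 lower. Among the lower were the kinase gene Jak2 at 33.7 ± 1.3 CPM in C48S and 65.0 ± 2.06 CPM in WT (-0.95 ± 0.081, adjusted p = 3.50e-12) and Stat3 (-0.57 ± 0.049). Before RA 4 were higher and 5 lower, with Socs3, a feedback inhibitor, higher (0.80 ± 0.064) and Jak2 lower (-0.84 ± 0.11). RA raised 5 and lowered 5 in C48S, and raised 10 and lowered 2 in WT. Over all genes tested, it raised 39% and lowered 34.6% in C48S, and raised 40.9% and lowered 37.4% in WT. The interaction was called higher for 22.2% of all genes tested and lower for 17.2%. In this list it was called higher for 2 and lower for 6. Stat3 (-0.89 ± 0.069) and Socs3 (-1.03 ± 0.1) were among the lower ones. Both lie on chromosome 11, and of the 13 tested genes they are the 2 on chromosomes 6, 8 or 11. Both were called lower in C48S after RA, where the median gene of chromosome 11 was at -0.49, and higher before RA, where it was at -0.53.

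Interferons, which also raise class I, are known to induce the genes of this list. Whether interferon acted in these cells was not tested. Of 28 listed, 24 were tested. In undifferentiated cells 17 were higher in C48S and 3 lower, with a median of 1.30. Over all genes tested, 27.5% were higher and 28.1% lower, with a median of 0.0014. Zbp1, a sensor of nucleic acids, was at 14.1 ± 1.17 CPM in C48S and 0.958 ± 0.302 CPM in WT (3.88 ± 0.23, adjusted p = 1.45e-16). The gene of the RNA sensor RIG-I, Ddx58, was at 116.4 ± 6.41 CPM in C48S and 41.9 ± 3.57 CPM in WT (1.48 ± 0.072, adjusted p = 6.06e-19), and Parp14 was higher by 1.54 ± 0.15. After RA 2 were higher in C48S and 11 lower, with a median of -0.23. The shares of all genes tested were 28.8% higher and 25.7% lower, with a median of 0.023. The GTPase gene Gbp2 was at 13.6 ± 1.55 CPM in C48S RA and 51.7 ± 2.89 CPM in WT RA (-1.93 ± 0.11, adjusted p = 3.39e-16), and the chemokine gene Cxcl10 at 0.751 ± 0.368 CPM in C48S RA and 9.32 ± 1.09 CPM in WT RA (-3.58 ± 0.27, adjusted p = 9.59e-14). The GTPase genes Irgm2 (-1.55 ± 0.11) and Igtp (-1.25 ± 0.095) were lower as well, and both lie on chromosome 11. Many of these genes are under 2 CPM before RA, and 4 of the 28 did not reach the minimum for testing.

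RA raised 12 and lowered 8 interferon-induced genes in C48S, and raised 17 and lowered 4 in WT. Over all genes tested, it raised 39% and lowered 34.6% in C48S, and raised 40.9% and lowered 37.4% in WT. Gbp2 rose by 2.89 in C48S and by 6.09 ± 0.19 in WT (adjusted p = 1.93e-24), and Ddx58 fell, with log2 fold changes of -2.77 ± 0.078 in C48S and -1.03 in WT. The interaction was called lower for 19 of 24 and did not pass for the other 5, with a median of -1.72. Over all genes tested it was called higher for 22.2% and lower for 17.2%, with a median of 0.023. Irgm2 had an interaction of -2.82 ± 0.25 (adjusted p = 1.92e-11), Ddx58 of -1.74 ± 0.12 and Parp14 of -1.71 ± 0.19. Of the 24, 16 lie on chromosomes other than 6, 8 and 11. Of these 16, 12 were higher and 2 lower in C48S before RA, 2 higher and 7 lower after RA, and 12 lower in the interaction. The list and the members share no gene.

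**Figure D4:**
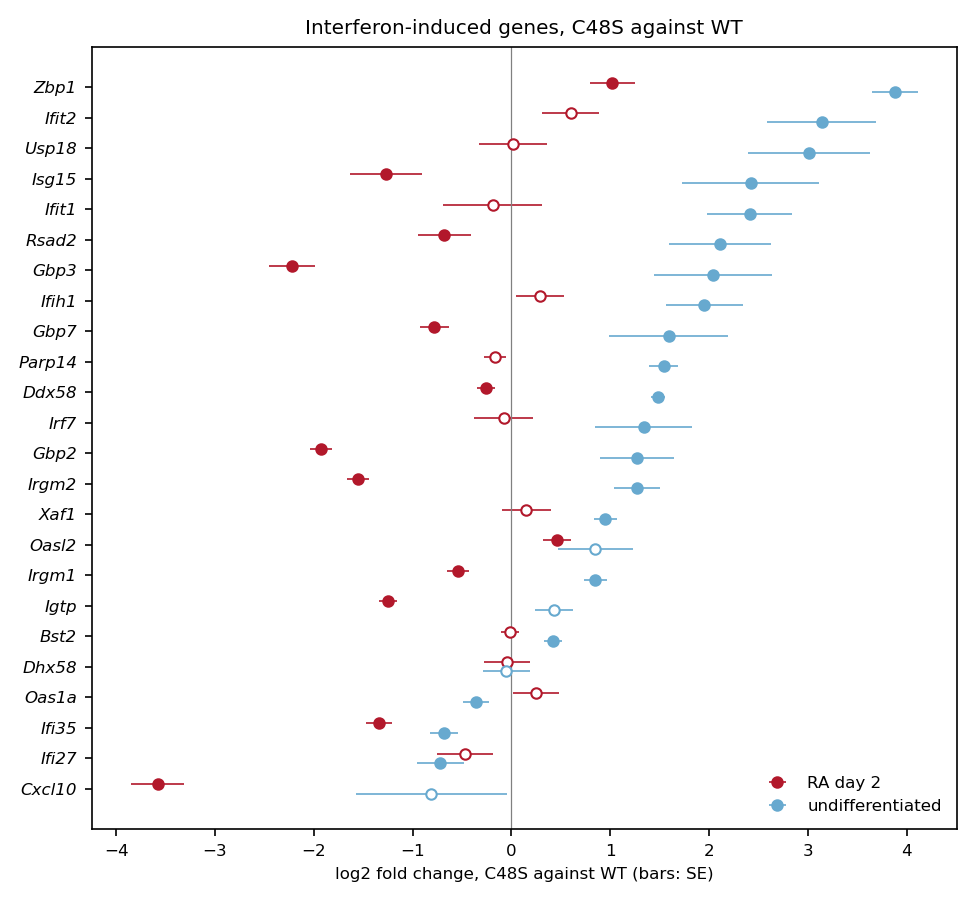
Log2 fold change of C48S against WT (x axis, bars ± SE) of the 24 interferon-induced genes tested, after RA (red) and undifferentiated (blue), filled where the adjusted p was under 0.05, ordered by the undifferentiated value. Most blue points lie right of 0, with Zbp1 at 3.88, and the red points of Gbp2, Irgm2, Igtp and Cxcl10 lie left of -1.

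Markers of cells that present antigen or carry high class I were examined in the same libraries. The 10 haematopoietic markers summed to 135.6 to 145.7 CPM in C48S RA, 45.2 to 52.2 in WT RA, 335.5 to 442.0 in C48S undifferentiated and 111.6 to 124.3 in WT undifferentiated libraries. The highest was Laptm5, at 127.1 ± 4.68 CPM in C48S RA, 37.7 ± 3.99 in WT RA, 378.7 ± 54.1 in C48S undifferentiated and 88.4 ± 4.23 in WT undifferentiated libraries. The macrophage marker Cd68 followed at 11 ± 0.958, 7.66 ± 0.923, 15.8 ± 2.83 and 18.3 ± 1.91 CPM in the same order, and the T cell marker Cd3e at 3.19 ± 0.875, 1.67 ± 0.19, 5.12 ± 0.787 and 9.88 ± 1.23 CPM. Csf1r reached 2.02 ± 0.711 CPM in WT undifferentiated libraries and at most 0.494 CPM elsewhere, and Ptprc, Adgre1 and Tyrobp were each at a mean of at most 0.241 CPM in every group. Only 4 of these 10 markers were tested, 3 of them called higher in C48S after RA, and 1 higher and 2 lower before RA. The 11 fibroblast or feeder markers summed to 419.0 to 430.3 CPM in C48S RA, 280.7 to 293.3 in WT RA, 504.0 to 668.0 in C48S undifferentiated and 390.6 to 422.7 in WT undifferentiated libraries. Of these 11, 2 were called higher and 4 lower in C48S after RA, and 5 higher and 4 lower before RA. Over all genes tested, 54.5% were called after RA and 55.6% before RA. Before RA, Col1a1 averaged 269.6 ± 56.1 CPM in C48S and 143.2 ± 7.61 CPM in WT. Dcn went the other way, at 28.7 ± 2.25 CPM in C48S and 45.8 ± 2.09 CPM in WT. After RA, Pdgfrb averaged 222.8 ± 4.29 CPM in C48S and 85.1 ± 4.22 CPM in WT. Col1a2 was lower in C48S, at 15.7 ± 0.313 CPM against 31.3 ± 1.12 CPM in WT. The 6 endothelial markers summed to 43.5 to 49.7 CPM in C48S RA, 82.5 to 98 in WT RA, 47.2 to 53.3 in C48S undifferentiated and 29.2 to 33.7 in WT undifferentiated libraries, and Cdh5 and Emcn were at a mean of at most 0.568 CPM. Tie1, an endothelial receptor gene, was at 11.9 ± 1.45 CPM in C48S RA, 70.1 ± 6.87 in WT RA, 0.562 ± 0.166 in C48S undifferentiated and 4.43 ± 0.119 in WT undifferentiated libraries. It was lower in C48S after RA (-2.56 ± 0.099), and its mean was lower in C48S before RA too. Tek was at 22.7 ± 2.29, 15.2 ± 1.4, 37.4 ± 3.35 and 17.3 ± 1.12 CPM in the same order, and Vwf at 11 ± 1.24, 3.10 ± 0.321, 12.8 ± 1.33 and 8.14 ± 1.32 CPM, both higher in C48S. The part of haematopoietic or endothelial cells in the differences of the members was not tested. The feeder sum, though not every feeder marker, was higher in C48S before RA, as were B2m, Tapbp and H2-D1. It was higher in C48S after RA too, where Tapbp and H2-D1 were lower and B2m was not called. The part of feeder cells in those differences was not tested.

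Of 11 class II presentation genes, which serve CD4 T cells, 8 were tested. RA raised 6 and lowered 1 in C48S, and raised 5 and lowered 3 in WT. Cd74, the gene of the invariant chain, averaged 25.2 ± 0.744 CPM in C48S RA and 37.2 ± 1.91 in WT RA, against 3.53 ± 1.25 in C48S undifferentiated and 3.64 ± 0.576 in WT undifferentiated libraries, and it was lower in C48S after RA (-0.56 ± 0.1, adjusted p = 1.26e-05). Of all genes tested, 28.8% were higher in C48S after RA and 25.7% lower. Between the lines after RA 2 of the 8 were higher in C48S, H2-DMa (0.49 ± 0.17) and the protease gene Ctsl (0.18). Cd74, H2-Aa (-1.51 ± 0.46) and H2-DMb1 (-0.81 ± 0.28) were the 3 lower ones. Before RA 1 was higher, H2-Oa (1.07 ± 0.46), and 2 lower, Ctsl (-0.65 ± 0.065) and H2-DMb1 (-1.71 ± 0.26).

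Across the 12 libraries, the genes most like a member were named by the Pearson correlation of log2 CPM, searched over 13928 protein-coding genes whose mean reached 1 CPM. These values describe libraries that fall into 4 groups and carry no test. H2-K1 was most like Tnnt3 (r = 0.997), Csrp1 (0.997) and Lrp4 (0.996). Tnnt3 was at 0 CPM in both undifferentiated groups, and averaged 0.997 ± 0.179 CPM in C48S RA and 4.62 ± 0.282 in WT RA libraries. Csrp1 averaged 156.9 ± 6.03 CPM in C48S RA, 375.1 ± 14.1 in WT RA, 54.5 ± 7.85 in C48S undifferentiated and 57 ± 3.44 in WT undifferentiated libraries. H2-D1 was most like Krt8 (0.998), Acad11 (0.998) and Clu (0.997), and Krt8, a keratin gene, averaged 87.5 ± 4.99, 158.7 ± 4.34, 11.6 ± 1.93 and 2.65 ± 0.616 CPM in the same order. B2m was most like Pde4d (0.995), Tmem108 (0.992) and Iqgap2 (0.980), and Nlrc5 was most like Sh2d3c, Sox7 and Stra6 (0.990 each), of which Stra6 encodes a receptor for retinol uptake. None of these nearest genes was an interferon-induced gene of the list. With so few of 13928 genes named per member, that absence says nothing about likeness to the list.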

How the data were processed

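The deposited values were raw read counts per gene, 1 table per library, made per the file headers with featureCounts 1.6.3 on read pairs, with strand option 2. Pairs went to the feature they overlapped most, in Ensembl release 104 models of GRCm39. Strand was therefore used in counting. STAR 2.7.9a, DESeq2 and the build mm39 are named in the submitters' processing notes, and the RNA was depleted of ribosomal RNA, per the labels' protocols. Gene symbols came from GENCODE M21 (52135 of the identifiers), which belongs to GRCm38 and served for naming alone. Hm13, Nrdc and Raet1a, which stand in the gene lists, matched no row under these symbols.

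All 12 libraries entered 1 fit with edgeR 4.0.16 (R 4.3.3), after filterByExpr at a minimum count of 10 and TMM scaling, with a mean per group and a robust quasi-likelihood test on 8 residual degrees of freedom and Benjamini-Hochberg adjustment over 17940 genes. Per-length levels divide CPM by the exon length in the tables. Precision is limited by counts, which for H2-T23 were 2 to 34 per library. The members and the 12 other gene lists were chosen with earlier results of these data known. All members are named in every comparison, and of each list the counts called and up to 4 genes with the smallest adjusted p in a comparison, with genes named in one comparison also given in others. Tested on simulated counts with known changes (16998 genes, undifferentiated C48S against WT), the fit found 26.5% of genes changed 1.2-fold, 62.5% at 1.5-fold, 83.7% at 2-fold and 95.7% at 4-fold, while 8.51% of calls fell on unchanged genes, above the nominal share. This was 1 simulated run, in which all other genes had the same mean in every group. In the data 55.6% of genes were called in that comparison, so the simulated share may not hold for the calls above. Alternatives were RLE scaling, DESeq2 1.42.0, no filter and a minimum count of 30, fits of the compared groups alone, a null of 1.5-fold, the replicate number as a block, TMM without chromosomes 6, 8, 11 and Y, and each library left out in turn. The counts per gene list without C48S undifferentiated replicate 3 and under other scalings were added after seeing the data. No library was left out of the results above.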

Additional observations from a re-analysis of the deposited data

Results flagged for a closer look

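For 6 members the response to RA differed between the lines by a test of the difference itself, the interaction of genotype and RA (C48S minus WT) on the log2 scale (edgeR quasi-likelihood test, all 12 libraries). The value was -1.34 for H2-K1, from RA changes of 1.63 in C48S and 2.98 in WT, and -1.10 for H2-D1, from 0.95 in C48S and 2.05 in WT. Tap1 had -0.75, with 3.16 in C48S and 3.91 in WT, so that these 3 genes rose in both lines and less in C48S. Tapbp had -2.14, with -0.10 in C48S, which did not pass the test, and 2.04 in WT. B2m had -0.86 and was the member whose RA changes were called in opposite directions, -0.56 in C48S and 0.29 in WT. H2-M5 had 3.28, with -1.96 in C48S and -5.24 in WT. The stem cell markers named in the report kept a higher level in C48S after RA, and their part in these differences was not tested.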

How the results depend on the processing

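Under a null of 1.5-fold in place of no change, 2 members were called between the lines in undifferentiated cells and 2 after RA, and over all genes 3605 before RA, 2952 after RA, 7032 for RA in C48S, 9060 for RA in WT and 2257 for the interaction; that null asks for larger changes by construction. Under the other alternatives run for all counts, each count stayed within 1.5 times its main value, with 3 to 4 members called before RA, 6 after RA, 8 to 9 for RA in either line and 6 to 7 for the interaction when a library was left out. With the replicate block the members called were 4, 6, 8, 8 and 6 in the order before RA, after RA, RA in C48S, RA in WT and interaction, as without it; same-numbered libraries did not deviate together (r from -0.0677 to 0.0406 over 18 pairs), so the numbers were not taken as pairs. Of the values of single members under an alternative, 645 kept direction and side of the threshold, 13 lost a call, 6 gained one and 5 changed sign. The sign changes were all of uncalled values: H2-K1 before RA ranged from -0.049 to 0.014 with a library left out, Nlrc5 before RA from -0.52 to 0.15, and H2-T23 after RA from -0.64 to 0.0076, and the cause was not tested. Under RLE scaling 1 interferon signalling gene was higher after RA in place of 2, and for class II genes 1 in place of 2 after RA, with H2-Oa no longer called before RA. H2-T23 did not reach a minimum count of 30 and gave no value there, and the fit of the compared groups alone does not apply to the interaction. H2-T23 and undifferentiated Nlrc5 rest on few reads, which limits what can be detected for them.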
